A study of Mus musculus with 8 samples.

Results

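Mt1 and Mt2 are the 2 widely expressed metallothionein genes of the mouse, and they make up 2 of the 12294 genes in the deposited table. They were taken by gene symbol, with the values of all 8 libraries. The pair was selected on its measured levels in these same 8 libraries, since Mt2 was already seen among the highest differences in AG120 and in AG120_AZA against vehicle. The levels and differences of both genes over these 8 libraries are therefore a description and carry no p-value.

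Expression was measured by QuantSeq, which reads the 3′ end of polyadenylated transcripts. The cells were I1DN leukemic progenitors, a name that the labels do not spell out, sorted per mouse as cKit-positive and CD11b-negative cells from mice transplanted with I1DN leukemia. For 5 days the mice received AG120 (ivosidenib, an inhibitor of mutant IDH1), AG120_AZA (AG120 with azacitidine, a nucleoside drug that traps DNA methyltransferases), AZA (azacitidine alone) or vehicle. Each of the 4 groups had 2 libraries, and all of them carry the same leukemia. The labels give no dose, mouse strain or age, and leave it unsaid whether each library came from its own mouse. Errors and p-values therefore describe the scatter among the libraries, which may be technical.

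Metallothioneins are small, cysteine-rich proteins that bind zinc and copper, hold them in reserve and bind toxic metals such as cadmium. The transcription factor MTF1 senses free zinc and switches both genes on through short metal response elements in their promoters. Glucocorticoids, interleukin 6 acting through STAT3, and oxidative stress are the other classical inducers. Mouse Mt1 has a history with azacitidine: in some mouse lymphoid tumour lines the gene is methylated and silent, and azacitidine makes it inducible by metals.

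The genes lie side by side on chromosome 8 of GRCm38 (the mm10 build), both on the plus strand. In GENCODE M21, Mt2 (ENSMUSG00000031762.7) spans 94172664 to 94173568 and Mt1 (ENSMUSG00000031765.8) spans 94179082 to 94180327. The transcripts Mt2-201 and Mt1-201, which span these intervals, have 3 exons each. Reads of a 3′ end kit fall mainly in the last exon, which in Mt2-201 lies at 94173336 to 94173568. The promoter windows are shown because the known inducers act there. They are from RefSeq (GRCm38.p6), run 5′ to 3′ on the plus strand from 250 bases before the annotated start to 30 bases after it, and carry in capitals each match to the metal response element core. That core was searched as TGCACNC or TGCGCNC, N being any base, on both strands.
Mt2, chr8:94172368-94172647: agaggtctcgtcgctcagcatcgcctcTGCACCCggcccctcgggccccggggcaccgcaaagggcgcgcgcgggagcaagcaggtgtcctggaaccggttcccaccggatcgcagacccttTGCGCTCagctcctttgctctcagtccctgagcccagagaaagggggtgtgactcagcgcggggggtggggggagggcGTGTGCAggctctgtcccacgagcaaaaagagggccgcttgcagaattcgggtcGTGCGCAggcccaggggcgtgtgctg
Mt1, chr8:94178839-94179118: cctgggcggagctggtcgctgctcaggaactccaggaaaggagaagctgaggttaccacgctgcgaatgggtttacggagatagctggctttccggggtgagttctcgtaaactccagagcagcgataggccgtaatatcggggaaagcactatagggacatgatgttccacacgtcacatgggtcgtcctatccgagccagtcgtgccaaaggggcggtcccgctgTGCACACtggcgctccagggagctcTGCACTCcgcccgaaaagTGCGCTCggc

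The Mt2 window held 4 such matches and the Mt1 window 3. Among 32851 RefSeq start windows of the same 280 bases, 24.1% held at least 1, 1.73% held 3 or more and 0.405% held 4 or more. GENCODE places the start of Mt2 downstream of the RefSeq one, and gives further Mt1 starts at 94179211 and 94179241. More matches lie between the printed windows and the coding starts. There were 3 in the leader of Mt2-201 and 2 in that of Mt1-201, each shown with 8 bases on either side since they add to the count above.
Mt2, chr8:94172676-94172682: aaaagggcGTGTGCAggcggcgg
Mt2, chr8:94172695-94172701: gcgggggcGCGTGCAtggtgcct
Mt2, chr8:94172729-94172735: ggagctttTGCGCTCgacccaat
Mt1, chr8:94179173-94179179: cgcctgctGGGTGCAaacccttt
Mt1, chr8:94179187-94179193: aaacccttTGCGCCCggactcgt

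The other motifs were searched in the printed windows only, and the windows differed in some of them. The leaders beyond the windows and the further Mt1 starts were not searched for these motifs, so matches there would be missed. The antioxidant response element core (TGACNNNGC), the site type of NRF2, matched once in the Mt2 window and not in the Mt1 window, and 11.5% of all windows held it. The loose glucocorticoid receptor palindrome (ACANNNTGT) matched once in the Mt1 window and not in the Mt2 window, against 6.42% of all windows. Mt1 had 3 GC boxes (GGGCGG), 1 of which overlaps the last base of its middle metal response match, and Mt2 had none. Such a box stood in 34.7% of windows. Neither window held a GATA site (AGATAA or TGATAA) or the E-box CACGTG. CpG dinucleotides, the sites of DNA methylation, numbered 24 in the Mt2 window and 21 in the Mt1 window, against a median of 6 over all windows; 16.9% of windows held at least 24 and 21.7% at least 21. These matches describe the letters only; the methylation data that the series design mentions were not analysed here.

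Mt2 was the member with the larger difference. Its level was 8.90 and 8.32 log2 CPM in the AG120 libraries and 8.51 and 9.05 log2 CPM in the AG120_AZA libraries, against 4.45 and 5.20 log2 CPM in the AZA libraries and 4.25 and 5.54 log2 CPM in the vehicle libraries (replicates 1 and 2 in that order). The 4 libraries with AG120 were all high and the 4 without it all low, and the lowest of the first 4 lay 2.77 log2 units above the highest of the others. On the linear scale (CPM, reads scaled to a common library total) these are 479 and 319 CPM in AG120 and 366 and 530 CPM in AG120_AZA, against 21.8 and 36.9 CPM in AZA and 19.1 and 46.6 CPM in vehicle. Groups averaged 8.61 ± 0.41 log2 CPM in AG120, 8.78 ± 0.38 in AG120_AZA, 4.83 ± 0.53 in AZA and 4.90 ± 0.91 in vehicle (SD, n = 2 each).

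Mt1 differed in the same direction and by less. It stood at 9.99 and 9.77 log2 CPM in AG120 and at 9.62 and 10.29 log2 CPM in AG120_AZA, against 8.85 and 8.58 log2 CPM in AZA and 8.55 and 9.30 log2 CPM in vehicle. Here too no library with AG120 was as low as any library without it, though only 0.32 log2 units separated AG120_AZA replicate 1 from vehicle replicate 2. The group means were 9.88 ± 0.15 log2 CPM in AG120, 9.95 ± 0.47 in AG120_AZA, 8.72 ± 0.19 in AZA and 8.93 ± 0.53 in vehicle (SD, n = 2 each). Of all genes tested, 984 (8.0%) had the 4 libraries with AG120 above the 4 without it, and 736 (5.99%) had them below. Both AG120 libraries lay above both vehicle libraries in 23.8% of genes, and both AG120_AZA libraries above both AZA libraries in 26.5%. Since this pattern chose the pair, nothing is read from its 2 members being among them.

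The order of the group levels was AG120_AZA, AG120, vehicle and AZA for both genes. The AG120_AZA and AG120 libraries overlapped, as did the vehicle and AZA libraries, so neither of those neighbours differed beyond its spread. The step from AG120 down to vehicle was 3.71 log2 units for Mt2 and 0.96 for Mt1, against vehicle SDs of 0.91 and 0.53.

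**Figure D1:**
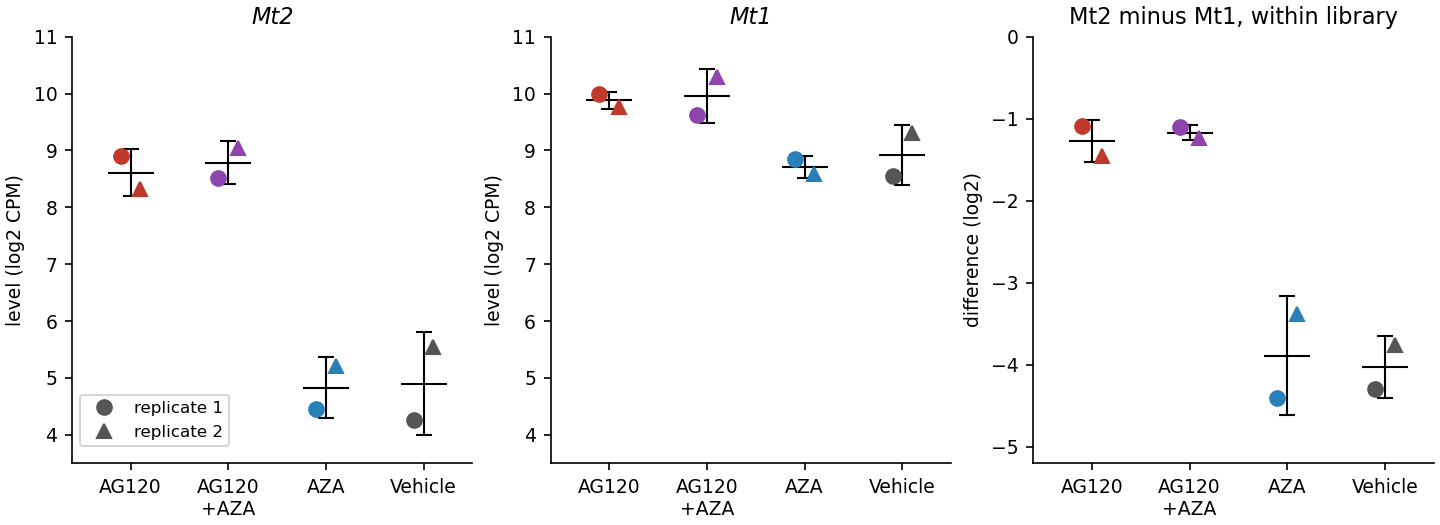
Level of Mt2 and of Mt1 in log2 CPM (left and middle) and the log2 difference of Mt2 minus Mt1 within each library (right), by treatment group; circles and triangles are replicates 1 and 2, horizontal bars the group mean and whiskers the SD (n = 2). Mt2 lies between 8.32 and 9.05 in the 4 libraries with AG120 and between 4.25 and 5.54 in the 4 without it, and the within-library difference is nearer to 0 in the libraries with AG120.

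In ranks within a library, which the authors' scaling leaves intact, Mt2 stood near the top of the table with AG120 and near its middle without it. It was the 322nd, 538th, 455th and 281st highest of 12294 genes in AG120 replicates 1 and 2 and AG120_AZA replicates 1 and 2. Without AG120 it ranked 5944th and 4418th in the AZA libraries and 6346th and 3753rd in the vehicle libraries. Mt1 was among the most abundant transcripts throughout, ranked 90th to 168th with AG120 and 223rd to 441st without it, so it was highly expressed in vehicle-treated cells too. Distinct values below a gene set a lower bound on its reads: Mt2 rested on at least 1450 reads more than the lowest class in every library with AG120 and on at least 111 in every library without it, and Mt1 on at least 1383 in all 8.

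As differences between groups, Mt2 was higher in AG120 than in vehicle by 3.71 ± 0.41 on the log2 scale (moderated SE), or 13.1-fold. In AG120_AZA it was higher than in AZA by 3.96 ± 0.41, or 15.5-fold. Taken over both AZA levels, 4 libraries against 4, the difference was 3.83 ± 0.28, or 14.3-fold, which placed Mt2 at rank 44 of all 12294 genes and at rank 5 of the 8478 genes with a mean of at least 3 log2 CPM. The same differences for Mt1 were 0.96 ± 0.28 (1.94-fold), 1.23 ± 0.28 (2.35-fold) and 1.09 ± 0.20 (2.14-fold), and by the last of these Mt1 ranked 708th of all genes and 160th of those 8478. AG120_AZA exceeded vehicle by 3.88 ± 0.41 for Mt2 and by 1.03 ± 0.28 for Mt1; this comparison shares its libraries with those above. Vehicle replicate 1 and replicate 2 differed by 1.29 log2 units for Mt2, so the AG120 difference from vehicle was 3.07 without vehicle replicate 1 and 4.36 without vehicle replicate 2.

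Differences of both genes with AZA were small beside their errors. The difference of AZA from vehicle was -0.07 ± 0.41 for Mt2 and -0.21 ± 0.28 for Mt1, and that of AG120_AZA from AG120 was 0.17 ± 0.41 for Mt2 and 0.07 ± 0.28 for Mt1, all within 1 SE of 0. Without vehicle replicate 1 the Mt2 difference of AZA from vehicle was -0.72, and without vehicle replicate 2 it was 0.57. The sign of each of these 4 differences turned with the library left out: over the 8 omissions AZA minus vehicle ran from -0.58 to 0.17 for Mt1, and AG120_AZA minus AG120 from -0.12 to 0.47 for Mt2 and from -0.27 to 0.40 for Mt1. The interaction, which asks whether the AG120 difference is larger in the presence of AZA, was 0.24 ± 0.58 for Mt2 and 0.28 ± 0.40 for Mt1, again smaller than its SE, and over the omissions it ran from -0.40 to 0.89 for Mt2 and from -0.10 to 0.65 for Mt1. With 2 libraries a group these SEs are wide, and a change of the AG120 difference of that size was not detectable.

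**Figure D2:**
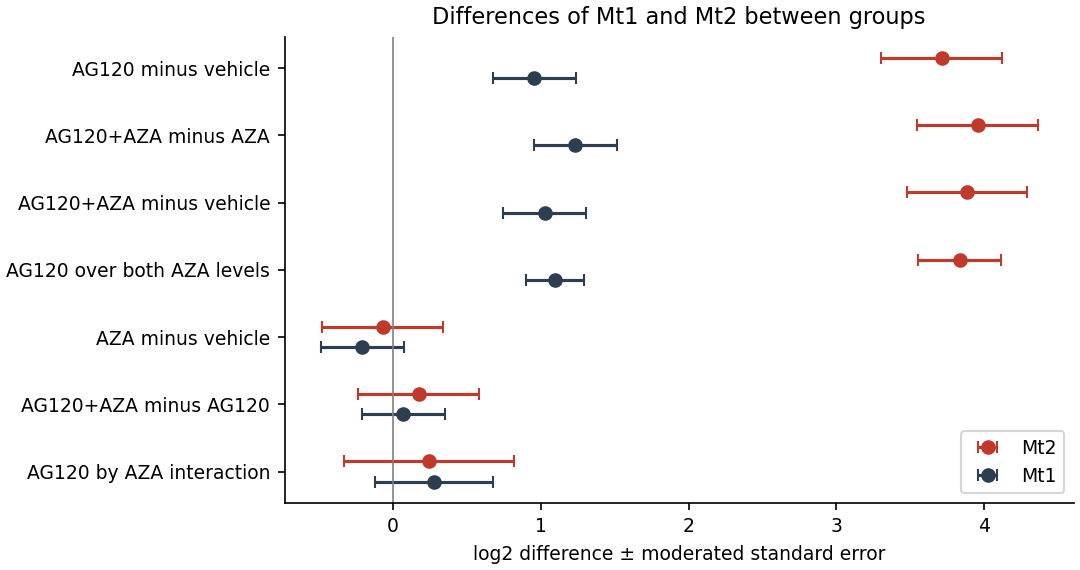
Log2 differences of Mt2 and Mt1 between groups, named as the first group minus the second, with moderated standard errors from the fit over 8 libraries. The 4 differences that set AG120 against its absence lie between 3.71 and 3.96 for Mt2 and between 0.96 and 1.23 for Mt1, and those of AZA and the interaction lie within 1 SE of 0.

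The members did not move by the same amount, as the difference between them within each library shows. A factor applied to a whole library leaves that difference as it is. Bringing the libraries to one distribution, as the authors did, can change it. Mt2 minus Mt1 averaged -1.27 ± 0.26 in AG120 and -1.17 ± 0.10 in AG120_AZA, against -3.89 ± 0.73 in AZA and -4.03 ± 0.38 in vehicle (log2 difference, SD, n = 2 each). Over 4 libraries a side it was -1.22 ± 0.17 with AG120 and -3.96 ± 0.48 without it, a shift of 2.74 log2 units. Only the shift is read here, since the level of one gene against another also depends on how well each 3′ end is captured. Over the 8 libraries the genes correlated at Pearson r = 0.938 and Spearman rho = 0.952, a description in which the libraries share their treatment groups. Between replicates of 1 group the members went the same way in 3 of the 4 groups, and in AZA replicate 1 was the higher for Mt1 (by 0.27) and the lower for Mt2 (by 0.76).

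The genes around the pair were compared next, over both AZA levels. Mt3, known from brain, and Mt4, known from stratified epithelia, lie 18.5 and 33.6 kb upstream of Mt2 and have no row in the table used here. Of 4 other measured protein-coding genes within 200 kb, none passed, and none had an unadjusted p below 0.05 (limma, Benjamini-Hochberg adjustment over all genes). Nup93, a nuclear pore gene 34.2 kb downstream of Mt1, differed by 0.33 ± 0.21 on the log2 scale over both AZA levels (adjusted p = 0.386). Upstream, Bbs2, a gene of the primary cilium, differed by -0.24 ± 0.49 (adjusted p = 0.805), Ogfod1, a ribosomal prolyl hydroxylase, by -0.01 ± 0.21 (0.988), and Nudt21, a factor of 3′ end processing, by 0.08 ± 0.16 (0.809). Gm15890, a low noncoding gene at the edge of the interval, differed by -2.11 ± 1.12 (0.288).

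One noncoding gene did rise with the pair. Gm45774 (ENSMUSG00000110588.1) is annotated on the minus strand at 94170748 to 94173412, across the Mt2 promoter and most of the Mt2 gene. It stood at 3.19 and 3.28 log2 CPM in AG120 and 2.65 and 3.85 in AG120_AZA, against 0.85 and 0.56 in AZA and 1.66 and 0.85 in vehicle. The rise over both AZA levels was 2.26 ± 0.42, or 4.79-fold (limma adjusted p = 0.0106), and it passed in each of 8 omissions of a library. Its values rested on at least 9 to 19 reads above the lowest class without AG120 and at least 46 to 71 with it. No source used here says whether the counting used strand, so transcription antisense to Mt2 and reads of Mt2 itself cannot be told apart.

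**Figure D3:**
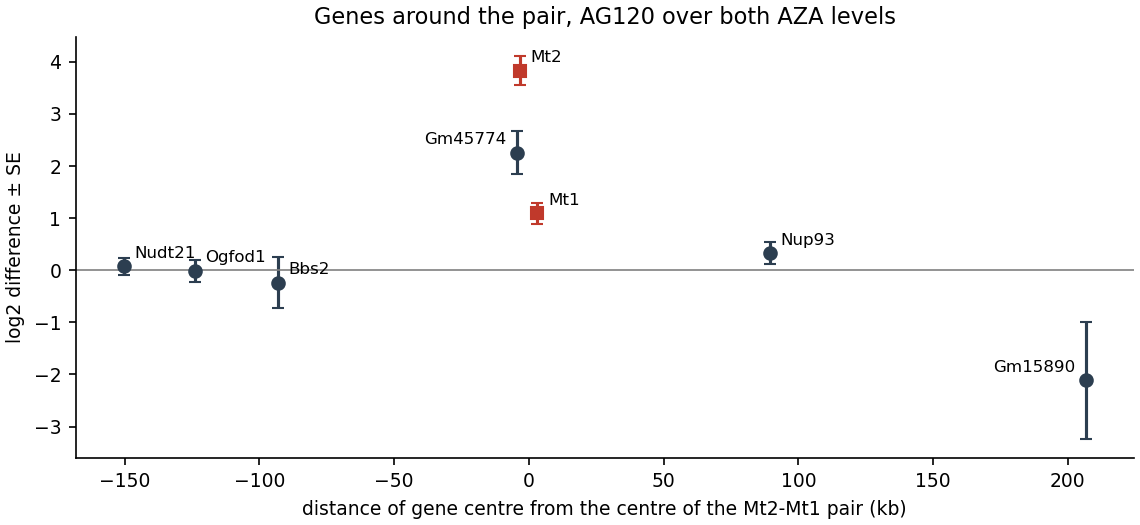
Log2 difference with AG120 over both AZA levels, with its SE, of the genes described within 200 kb of the pair, against the distance of each gene's centre from the centre of the pair in kb. Mt2 (3.83), its antisense gene Gm45774 (2.26) and Mt1 (1.09) lie above the coding neighbours, which range from -0.24 to 0.33.

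Genes that handle metals or answer to the known inducers of metallothioneins were then compared in the same contrast, AG120 over both AZA levels. In it 719 of 12294 genes passed (5.85%), 415 higher (3.38%) and 304 lower (2.47%), with a median log2 difference over all genes of 0.01. The counts below come from limma with adjustment over all genes, and the lists stand beside that background.

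None of the 6 measured members of the list of MTF1 and the zinc exporters passed, 1 had an unadjusted p below 0.05, and the median log2 difference was -0.00089. Slc30a1, the plasma membrane zinc exporter that MTF1 also switches on, stood at 3.58 and 2.70 log2 CPM in AG120 and 3.40 and 3.73 in AG120_AZA, against 3.25 and 3.60 in AZA and 2.62 and 2.39 in vehicle. Libraries with and without AG120 overlapped, and the difference was 0.39 ± 0.31 (adjusted p = 0.488). Mtf1 itself differed by -0.09 ± 0.16 (adjusted p = 0.790); it was singled out after its values were seen. Slc30a9 (0.59 ± 0.23, adjusted p = 0.151), Slc30a7 (-0.29 ± 0.22, 0.470) and Slc30a6 (-0.17 ± 0.29, 0.764), transporters of internal membranes, did not pass.

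Among the 12 measured zinc importers 1 passed, in the lower direction, and the median was 0.21. Slc39a6 fell by 0.80 ± 0.20 (adjusted p = 0.0371). It stood at 4.97 and 5.20 log2 CPM in AG120 and 4.74 and 4.59 in AG120_AZA, against 5.57 and 5.99 in AZA and 5.52 and 5.64 in vehicle, with no overlap. The call was lost without AG120 replicate 1 (adjusted p = 0.110), AG120_AZA replicate 1 (0.0938) or 2 (0.0890), AZA replicate 1 (0.0886) or 2 (0.0843), or vehicle replicate 2 (0.0671). Slc39a9 (-0.39 ± 0.16, adjusted p = 0.162), Slc39a11 (-0.48 ± 0.20, 0.180) and Slc39a7 (0.40 ± 0.17, 0.189) did not pass.

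Of 12 measured copper genes 2 rose, and the median was 0.33. Steap3, a metalloreductase of endosomes that reduces iron and copper, was high in the same 4 libraries as Mt2: it stood at 7.23 and 6.65 log2 CPM in AG120 and 7.61 and 7.65 in AG120_AZA, against 3.93 and 5.47 in AZA and 3.35 and 4.83 in vehicle. Its rise was 2.89 ± 0.35, or 7.41-fold (adjusted p = 0.00122), and held in each of 8 omissions. Atp7b, a copper-exporting ATPase, rose by 4.06 ± 1.07 from values near the bottom of the table (mean -0.32 log2 CPM), where a log2 difference is uncertain (adjusted p = 0.0468). The Atp7b call was lost without AG120 replicate 1 (0.192) or 2 (0.0712), AG120_AZA replicate 1 (0.126) or 2 (0.0644), AZA replicate 1 (0.115), or vehicle replicate 1 (0.0610) or 2 (0.0921). The copper chaperone Atox1 (0.57 ± 0.20, adjusted p = 0.110) and Sco2, which delivers copper to cytochrome oxidase (0.72 ± 0.25, 0.116), did not pass.

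Iron genes included more that rose, 5 of 16 measured, with none lower and a median of 0.18. Besides Steap3, they were Slc11a2, the divalent metal importer DMT1 (1.92 ± 0.28, 3.78-fold, adjusted p = 0.00283), Slc40a1, the iron exporter ferroportin (2.28 ± 0.42, 0.00965), and the transferrin receptors Tfrc (0.84 ± 0.16, 0.0108) and Tfr2 (1.34 ± 0.27, 0.0145). Slc11a2 stood at 5.87 and 5.03 log2 CPM in AG120 and 5.89 and 6.21 in AG120_AZA, against 4.02 and 4.19 in AZA and 2.97 and 4.15 in vehicle. The ferritin subunits that store iron, singled out after their values were seen, did not pass: Fth1 differed by 0.28 ± 0.18 (adjusted p = 0.372) and Ftl1 by -0.34 ± 0.14 (0.181). Calls were lost without AG120 replicate 1 for Slc40a1 (0.0534), Tfrc (0.0625) and Tfr2 (0.0737), and without AZA replicate 1 for Tfr2 (0.0529). The list's count ran from 2 to 5 over the 8 omissions.

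Among 24 measured targets of NRF2, the factor of the antioxidant response, and genes of glutathione synthesis, 3 rose and the median was 0.15. Gclm, the modifier subunit of the enzyme that limits glutathione synthesis, stood at 6.34 and 6.03 log2 CPM in AG120 and 6.50 and 6.56 in AG120_AZA, against 5.48 and 5.60 in AZA and 4.80 and 4.72 in vehicle. It rose by 1.21 ± 0.17, or 2.31-fold (adjusted p = 0.00236). Nqo1, a quinone reductase and a standard NRF2 target, rose by 1.30 ± 0.25 (adjusted p = 0.0113), a call lost without AG120 replicate 1 (0.0648). Gss, glutathione synthetase, rose by 1.13 ± 0.28 (adjusted p = 0.0400). That call was lost without AG120 replicate 1 (0.122), AG120_AZA replicate 1 (0.0711) or 2 (0.101), AZA replicate 1 (0.112) or 2 (0.0929), or vehicle replicate 2 (0.0741), and when scaled to housekeeping genes (0.0536). The glutathione conjugate exporter Abcc1 did not pass (-0.76 ± 0.26, adjusted p = 0.109). Nor did Hmox1, heme oxygenase (0.59 ± 0.48, 0.494) and Txnrd1, thioredoxin reductase (-0.40 ± 0.16, 0.157), both singled out after their values were seen.

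The other inducers are hormonal and inflammatory. Of 16 measured glucocorticoid receptor genes, receptor included, none rose and 1 fell, and the median was -0.19. That gene was Pik3ip1, an inhibitor of PI3 kinase (-1.06 ± 0.23, adjusted p = 0.0198), and its call was lost without AG120 replicate 1 (0.0791), AG120_AZA replicate 1 (0.0630), AZA replicate 1 (0.0706) or vehicle replicate 2 (0.0567). Errfi1, a feedback inhibitor of the EGF receptor (-4.21 ± 1.26, adjusted p = 0.0711, at a mean of -1.47 log2 CPM), the transcription factor Cebpd (-1.11 ± 0.34, 0.0729) and Ddit4, an inhibitor of mTORC1 (0.77 ± 0.30, 0.156), did not pass. The widely used glucocorticoid readouts Fkbp5 (-0.48 ± 0.21, 0.194) and Tsc22d3 (0.12 ± 0.19, 0.743) did not pass either, and were singled out after their values were seen.

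Of 15 measured genes of the interleukin 6 and STAT3 pathway, 5 fell and none rose, with a median of -0.95. Il6ra, the interleukin 6 receptor, stood at 1.56 and 2.24 log2 CPM in AG120 and 0.72 and 0.85 in AG120_AZA, against 3.85 and 3.53 in AZA and 4.39 and 4.45 in vehicle. It fell by 2.71 ± 0.32 (adjusted p = 0.00108). Bcl3, a nuclear IkB protein and STAT3 target, fell by 2.03 ± 0.30 (adjusted p = 0.00283), Il4ra, the interleukin 4 receptor, by 1.46 ± 0.24 (0.00583), Stat3 by 0.92 ± 0.19 (0.0160) and the kinase Pim1 by 0.95 ± 0.22 (0.0285). Socs3, the feedback inhibitor that STAT3 induces, had a difference of -1.33 ± 0.36 that did not pass (adjusted p = 0.0515), and was singled out after its values were seen. The Stat3 call was lost without AG120 replicate 1 (0.0560) or AZA replicate 1 (0.0550). The Pim1 call was lost without those (0.109 and 0.0610), AZA replicate 2 (0.0698), or AG120_AZA replicate 1 (0.0780) or 2 (0.0681). Over all 8 omissions the list had 3 to 7 lower members.

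Heat shock proteins, which metals also induce, had 3 of 13 higher and none lower (median 0.60). The members that rose were the mitochondrial chaperonins Hspd1 (0.90 ± 0.16, adjusted p = 0.00953) and Hspe1 (0.72 ± 0.15, 0.0185) and the cytosolic Hsph1 (1.06 ± 0.24, 0.0254). The cytosolic chaperone Hsp90aa1 differed by 0.56 ± 0.16 without passing (adjusted p = 0.0569). Hspe1 lost its call without AG120 replicate 1 (0.0924) or AZA replicate 1 (0.0645), and Hsph1 without AG120 replicate 1 (0.113), AG120_AZA replicate 2 (0.0723), AZA replicate 2 (0.0588) or vehicle replicate 2 (0.0664).

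Without the mean-variance trend of the fit, the calls of Steap3, Gclm, Nqo1, Slc11a2, Tfrc, Il6ra, Bcl3 and Il4ra held. Those of the other genes named in these lists as passing were lost, with adjusted p between 0.0540 for Slc40a1 and 0.101 for Gss. With vooma weights Atp7b was lost too (0.103).

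Compared at each AZA level alone, fewer genes passed. In AG120 against vehicle 71 genes did (0.578%, 44 or 0.358% higher and 27 or 0.22% lower), and the listed ones were Steap3 (2.85 ± 0.52, adjusted p = 0.0384), Gclm (1.42 ± 0.23, 0.0270) and Il6ra (-2.52 ± 0.47, 0.0409). In AG120_AZA against AZA 278 genes passed (2.26%, 1.06% higher and 1.2% lower). The listed ones were Steap3 (2.93 ± 0.52, adjusted p = 0.0185), Slc11a2 (1.95 ± 0.41, 0.0367), Il6ra (-2.91 ± 0.47, 0.0121), Bcl3 (-2.33 ± 0.41, 0.0187) and Irs2, an insulin receptor substrate from the glucocorticoid list (1.98 ± 0.44, 0.0462). Each of these calls was lost in 2 to 7 of the 8 omissions. Without AG120 replicate 1 the AG120 differences from vehicle of Steap3 (0.253), Gclm (0.239) and Il6ra (0.291) did not pass. Without AZA replicate 1 the AG120_AZA differences from AZA of Steap3 (0.176), Slc11a2 (0.250), Il6ra (0.148), Bcl3 (0.118) and Irs2 (0.174) did not pass. In AG120_AZA against vehicle, which shares its libraries with both, 371 passed (3.02%, 1.63% higher and 1.38% lower), 13 of them in these lists. Limma called no gene for AZA against vehicle, for AG120_AZA against AG120 or for the interaction, with 432, 1237 and 765 genes at an unadjusted p below 0.05.

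**Figure D4:**
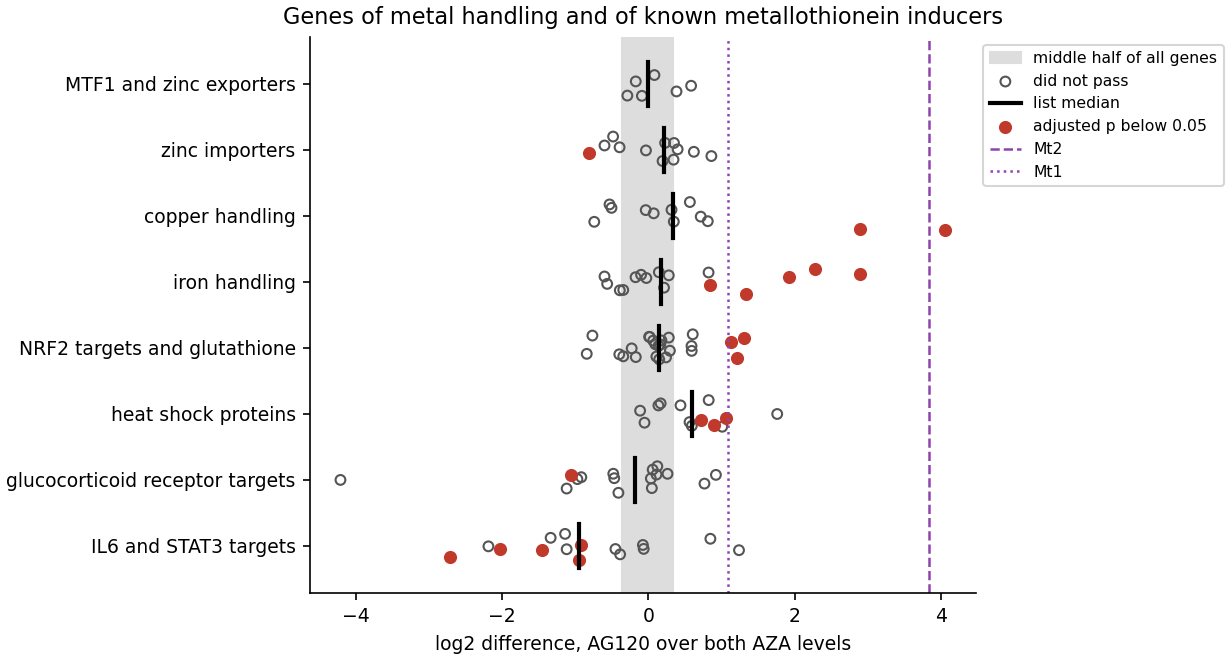
Log2 difference with AG120 over both AZA levels of each measured gene in 8 lists; filled points passed at adjusted p below 0.05, open points did not, black bars are list medians, the grey band spans the lower to the upper quartile of all genes and the vertical lines mark Mt2 (dashed) and Mt1 (dotted). The list medians run from -0.95 for IL6 and STAT3 targets to 0.60 for heat shock proteins, and all 6 members of the MTF1 and zinc exporter list lie below Mt1.

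Cell type markers moved with the metallothioneins in the same libraries. Of 20 erythroid markers 11 rose over both AZA levels (9 to 12 over the 8 omissions), among them Klf1, an erythroid transcription factor, by 3.36 ± 0.25 (limma adjusted p = 7.43e-05) and Rhd, a blood group protein, by 4.28 ± 0.43 (0.000515). Of 16 measured mast cell, basophil and eosinophil markers 7 rose (5 to 7), among them the basophil protease Prss34 by 4.61 ± 0.37 (0.000100) and the IgE receptor chain Ms4a2 by 3.66 ± 0.24 (4.71e-05). Summed, the mast cell, basophil and eosinophil list stood at 3924 to 4200 CPM in AG120 and 2593 to 4053 in AG120_AZA, against 1733 to 1800 in AZA and 1163 to 1495 in vehicle. The summed erythroid list, in which globins dominate, overlapped between groups, at 957 to 2413 CPM in AG120, 4639 to 4656 in AG120_AZA, 2151 to 5003 in AZA and 1847 to 2720 in vehicle. Each gene named in this paragraph as having risen passed in each of 8 omissions. In sorted bulk cells, more cells of a type and more RNA per cell cannot be told apart, and the part of these markers in the metallothionein levels was not tested.

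Monocyte and macrophage markers fell in 4 of 12 measured members, among them Ms4a6c (-1.71 ± 0.23, limma adjusted p = 0.00220), with a list median of 0.11, and their sum was 218 to 326 CPM in AG120 and 258 to 265 in AG120_AZA, against 598 to 741 in AZA and 478 to 1099 in vehicle. Neutrophil markers fell in 1 of 14 members (median -1.70), Ngp (-2.06 ± 0.48, adjusted p = 0.0276), whose call was lost without either AG120_AZA library (0.0744 and 0.0618), either AZA library (0.0956 and 0.0795) or vehicle replicate 2 (0.0561). The list's count of lower members ran from 0 in those omissions to 6 without AG120 replicate 1, with 2 without AG120 replicate 2 and 4 without vehicle replicate 1, and was 5 with vooma weights and 4 with array weights. Their sum was 3996 to 6465 CPM in AG120, 1089 to 2865 in AG120_AZA, 11183 to 15632 in AZA and 2893 to 13077 in vehicle. Megakaryocyte markers had a median difference of -0.32, and their sum was 548 to 1423 CPM in AG120, 3663 to 3926 in AG120_AZA, 2263 to 2742 in AZA and 2479 to 2647 in vehicle. The table holds 2 of 8 B cell, 3 of 10 T and NK cell and 2 of 10 stromal and endothelial markers, and limma called none of these, nor had any an unadjusted p below 0.05. Their sums overlapped between libraries with and without AG120. Over all libraries they were 8.06 to 26.0 CPM for the B cell list and 585 to 1100.1 CPM for the T and NK cell list. The stromal and endothelial list stood at 125 to 221 CPM. Nkg7 made up most of the T and NK cell sum and Pecam1 most of the stromal and endothelial sum, so these sums do not measure such cells. The other listed markers of these types have no row in the table used here. Kit, a sort marker, fell by 1.33 ± 0.27 (adjusted p = 0.0162), lost without AG120 replicate 1 (0.0702) or AG120_AZA replicate 1 (0.0523), and Itgam, the gene of CD11b, differed by -0.44 ± 0.51 (0.638). Without the mean-variance trend the calls of Ngp (0.133) and Kit (0.0904) were lost. Among erythroid markers 7 then passed, with Gata1, Epor, Ermap and Ank1 lost; among mast cell, basophil and eosinophil markers 4, with Epx, Prg2 and Prg3 lost; and among monocyte and macrophage markers 2, with Csf1r and Irf8 lost. The list of 15 housekeeping genes had a median difference of -0.02.

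Finally, every named gene with a mean of at least 3 log2 CPM was compared with the mean of Mt1 and Mt2 over the 8 libraries, a description over libraries that share treatment groups. The most alike were Mcrip2 (Pearson r = 0.988), Acbd6 (0.984), Mrps18b (0.980), Nifk (0.979), Cct8 (0.978), Samd14 (0.978), Lsm2 (0.978), Nop56 (0.975), Napa (0.975) and Tarbp2 (0.975). Most of these differed far less than Mt2, with log2 differences over both AZA levels of 0.53 to 0.81 for 8 of the 10, against 2.25 for Mcrip2 and 3.69 for Samd14. The most unlike were Ifi203 (r = -0.992), an interferon-inducible gene, Zfp523 (-0.984), Lsp1 (-0.983), Smad5 (-0.981) and Epsti1 (-0.978). This ranking was not stable: 208 of 8089 genes had r of at least 0.9, and between 0 and 6 of the 10 stayed in the top 10 when a library was left out. By list, only members with a mean of at least 3 log2 CPM entered. The median r was 0.82 for 14 of 20 erythroid markers and 0.82 for 11 of 16 measured mast cell, basophil and eosinophil markers. For 5 of 12 measured monocyte and macrophage markers it was -0.78. All 12 of these had a median log2 difference of 0.11, so that r does not describe the whole list. For the 6 members of the MTF1 and zinc exporter list the median r was -0.06, against 0.04 over all compared genes.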

How the data were processed

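The deposited table holds log2 CPM values for 12294 genes in 8 libraries, which the authors had brought to one distribution: the highest value is 13.37 in every library, so library totals and depth are unknown. The submitters' processing notes name the build mm10, and as software edgeR 3.28.1, limma 3.42.2, R 3.6.2, featureCounts, Subread 1.6.3, HISAT2 2.1.0, cutadapt 1.14 and bcl2fastq 2.17.1.14. The annotation and strand setting of the counting are unstated in these sources. The median gene rested on at least 105 to 149 distinct values above the lowest in its library, a lower bound on its reads.

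Values were used as deposited. In limma 3.58.1 (R 4.3.3), linear models moderated with a mean-variance trend (eBayes) were fitted to 4 group means (4 residual, 7.06 prior degrees of freedom) and, for AG120 over both AZA levels, to an additive model (5 and 6.85). Two-sided p-values were adjusted by Benjamini-Hochberg over all genes, with a threshold of 0.05. The script was tested on simulated data. Alternatives were leaving out each library, no trend, vooma weights, array weights, a minimum mean of 5 log2 CPM, fitting the compared groups alone, scaling to 15 housekeeping genes, ratios of linear means, Spearman rho for likeness, and the replicate number as a block.

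The members, the 19 gene lists and the motifs were chosen with earlier results of these data known. Named genes were the members; listed genes that passed, with up to 4 of smallest p per list; the 10 genes most like and 5 most unlike the pair, skipping unnamed gene models; annotated genes within 200 kb; and both sort markers. Some genes that this rule names are not reported here.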

Additional observations from a re-analysis of the deposited data

How the results depend on the processing

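Of 154 recomputed differences of Mt1 and Mt2, 146 moved by less than the SD between replicates, and all 44 of each gene that set groups with AG120 against groups without it stayed above 0. The 8 that moved more were of Mt2 and came from leaving out a vehicle library: over the omissions Mt2 differed by 3.07 to 4.36 in AG120 against vehicle, 3.24 to 4.53 in AG120_AZA against vehicle, -0.72 to 0.57 in AZA against vehicle and -0.40 to 0.89 in the interaction. Scaling to housekeeping genes shifted all genes by -0.13 in AG120 against vehicle, 0.13 in AG120_AZA against AZA, 0.21 in AG120_AZA against AG120 and 0.26 in the interaction; Mt2 and Mt1 then differed by 3.58 and 0.83, 4.09 and 1.36, 0.38 and 0.28, and 0.50 and 0.54 in these.

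Counts of passing genes depended on the fit. They were 71 in AG120 against vehicle, and 0 without the trend, 31 with vooma weights, 23 at a mean of at least 5 log2 CPM, 18 from the compared groups alone and 8 to 103 over omissions (fewest without vehicle replicate 1). AZA against vehicle had 0 (432 at an unadjusted p below 0.05), and 2 without the trend, 1 from its groups alone and 0 to 1 over omissions. AG120_AZA against vehicle had 371, and 43 without the trend, 82 at a mean of at least 5, 200 from its groups alone and 37 to 727 over omissions (fewest without AG120_AZA replicate 2). AG120_AZA against AZA had 278, and 9 without the trend, 174 with array weights, 67 at a mean of at least 5 and 14 to 594 over omissions (fewest without AZA replicate 1). AG120_AZA against AG120 had 0 (1237 unadjusted) and 0 to 213 over omissions (most without AG120_AZA replicate 1), and the interaction 0 (765 unadjusted) and 0 to 29. AG120 over both AZA levels had 719, and 211 without the trend, 1341 with array weights, 369 at a mean of at least 5 and 201 (without AG120 replicate 1) to 771 over omissions. In the 8 pathway lists together it had 19, and 10 without the trend, 8 at a mean of at least 5 and 7 to 22 over omissions, the fewest without AG120 replicate 1. The minimum mean tests fewer genes and an omission uses fewer libraries; otherwise the cause was not tested. By Spearman rho, 2 of the 10 genes most like the pair stayed among the top 10.

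With the replicate number as a block the differences were as before, since the design is balanced (Mt2 over both AZA levels 3.83), and 725 genes passed in that contrast. The block ended the calls of Atp7b (adjusted p = 0.0609) and Gss (0.0514) and of no other gene named as passing over both AZA levels. Same-numbered libraries of different groups deviated together with correlations of -0.11 to 0.19, the highest between vehicle and AG120. These correlations are low, but they cannot show that same-numbered libraries had nothing in common. Depth is unknown, and Mt2 in the libraries without AG120 and Gm45774 rest on the fewest reads.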
